A study of Mus musculus with 34 samples.

Results

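A set of 6 neuronal genes of mouse chromosome 16 was followed through the hippocampus of mice with and without an extra copy of the segment that holds them. They were taken by name from the deposited tables: Dscam and Ncam2, which encode cell adhesion molecules, Grik1 and Kcnj6, which encode ion channel subunits, and Pcp4 and Tiam1, which encode intracellular signalling proteins. All 6 of the 6 named genes were present among the 55385 genes in the files, and all 6 passed the filter on low counts that left 17518 genes for testing. They lie within the segment triplicated in Dp16 mice, taken here from Lipi to Zbtb21 (chromosome 16, 75540514 to 97962622 in GRCm38, 22.4 Mb), which held 384 annotated genes of which 107 were tested.

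The 34 animals were 6 months old, and RNA of their hippocampus was sequenced. Wild-type C57BL/6J mice (WT, 5 given sham and 5 given tofacitinib) and 5xFAD mice (4 sham, 5 tofacitinib) have 2 copies of each gene of the segment. Dp16 mice (3 sham, 5 tofacitinib) and 5xFAD-Dp16 mice (3 sham, 4 tofacitinib) have 3 copies, the extra one on a duplicated stretch of their own chromosome, so that 15 libraries were with and 19 without the extra segment. The 5xFAD transgenes are mutant human amyloid precursor protein and presenilin genes driven by the neuronal Thy1 promoter. Tofacitinib, an inhibitor of Janus kinases, was given by gavage at 15 mg/kg each day over a month, and sham animals received the vehicle, 0.5% methylcellulose. Library totals ran from 14.9 to 21.1 M counts, and 16 animals were female and 18 male. Thy1, whose promoter sequence the transgenes carry, was at or above 967 CPM (a gene's counts scaled to a library total of 1 M) in every library labelled 5xFAD or 5xFAD-Dp16 and at or below 934 in the others. The mean log2 CPM of the other tested segment genes was at least 3.62 in the libraries labelled with the segment and at most 3.37 in those without.

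Down syndrome is caused by an extra copy of human chromosome 21, and Dp16 mice triplicate the largest block of its mouse counterpart. A gene present in 3 copies instead of 2 would give 1.5-fold more RNA, a log2 difference of 0.585, if each copy were transcribed alike. Dscam and Ncam2 are immunoglobulin-type surface proteins that guide neurites and hold contacts together. Grik1 encodes the kainate receptor subunit GluK1, used by many inhibitory interneurons, and Kcnj6 encodes GIRK2, a potassium channel opened through G proteins by inhibitory receptors such as GABA-B. Pcp4 is a small protein that speeds calcium exchange of calmodulin, and Tiam1 is an exchange factor that switches on the GTPase Rac in dendrites and spines.

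The genes are long, apart from Pcp4. In the files' build (GRCm38), Dscam covers chromosome 16 from 96590840 to 97170752 on the minus strand (579.9 kb), Ncam2 from 81200697 to 81626828 on the plus strand (426.1 kb), and Grik1 from 87895900 to 88290265 on the minus strand (394.4 kb). Kcnj6 runs from 94748636 to 94997701 on the minus strand (249.1 kb), Pcp4 from 96467606 to 96525793 on the plus strand (58.2 kb), and Tiam1 from 89787111 to 90143769 on the minus strand (356.7 kb). All are protein coding. Genes that overlap them, some on the opposite strand, had median counts of 0 to 3 and never more than 10 in a library. Median counts of the overlapped members were 574 to 2668.

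The starts of 3 of these genes are printed, picked by their steadiness between animals or their mean ratio. Whether the sequences bear on either was not tested. Dscam was among the steadiest, Kcnj6 had the highest mean ratio, and Pcp4 had the widest spread over the 34 libraries. Each is the 250 bases before the RefSeq start (GRCm38.p6), 5′ to 3′ on the gene's strand, with every CG pair in capitals. They are chr16:97170736-97170985 (minus strand) for Dscam, chr16:94997697-94997946 (minus strand) for Kcnj6 and chr16:96467356-96467605 (plus strand) for Pcp4.
Dscam: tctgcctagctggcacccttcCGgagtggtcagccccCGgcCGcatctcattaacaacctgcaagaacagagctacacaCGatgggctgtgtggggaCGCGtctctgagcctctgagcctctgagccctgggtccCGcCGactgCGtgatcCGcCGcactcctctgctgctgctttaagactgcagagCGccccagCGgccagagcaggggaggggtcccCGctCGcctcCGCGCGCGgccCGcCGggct
Kcnj6: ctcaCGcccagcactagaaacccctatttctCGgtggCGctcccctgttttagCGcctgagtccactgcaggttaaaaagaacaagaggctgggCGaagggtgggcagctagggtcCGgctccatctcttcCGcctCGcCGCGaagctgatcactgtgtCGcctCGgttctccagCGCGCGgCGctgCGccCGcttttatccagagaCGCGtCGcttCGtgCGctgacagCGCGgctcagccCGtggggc
Pcp4: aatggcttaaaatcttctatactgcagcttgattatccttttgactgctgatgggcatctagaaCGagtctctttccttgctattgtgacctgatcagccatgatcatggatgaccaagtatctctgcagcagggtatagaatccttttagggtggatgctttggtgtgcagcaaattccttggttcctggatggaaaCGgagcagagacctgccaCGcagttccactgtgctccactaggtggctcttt
The Dscam stretch holds 21 CG pairs and that of Kcnj6 holds 26, against a median of 6 over 32851 RefSeq promoter entries cut to the same length. Of all entries, 16.3% held as many CG pairs as Dscam and 9.59% as many as Kcnj6. Pcp4 holds 3, and 37.8% of all entries held as few. Of the 6 genes, 5 had an entry. That of Ncam2 holds 32 CG pairs (4.58% of all entries held as many), while the 2 entries of Tiam1, which begin inside the gene model above, hold 6 and 9, and a later start of Kcnj6 holds 7. The letters TATAAA, searched on both strands, are in 12.4% of all entries and in none of the 7 entries of these genes.

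In all, 3 libraries stood apart from the rest in the hippocampal markers, and results that rest on them are given with and without them. The mean log2 CPM over markers of the dentate gyrus, CA1 and CA3 (CA2 was not included) set them apart. It came to 3.34 for WT library 3 and 3.48 for 5xFAD library 2 of the tofacitinib groups. Library 4 of the sham 5xFAD-Dp16 group had 3.50, against at least 4.91 for the other 31. Summed over its 8 markers, the dentate granule cell list reached 133, 185 and 187 CPM in these libraries and 281 to 721 in the others. The 8 markers of thalamus and habenula summed to 99.6, 1260 and 802 CPM, against 88 to 332, and the 10 striatal markers to 1480, 2280 and 328 CPM, against 239 to 549. The 5 markers of CA1 neurons summed to 342, 224 and 135 CPM, against 399 to 822. The 2 other CA lists summed to 89, 233 and 108 CPM for CA2 (175 to 244 in the others, so that the second library lay within them) and to 102, 89 and 80.9 CPM for CA3 (119 to 191). Outside the neurons of these fields, oligodendrocyte markers summed to 7660, 10600 and 13000 CPM, against 4600 to 8180. Astrocyte markers summed to 1550, 1570 and 1600 CPM, against 1890 to 3140, but not every gene of the list was low. Slc1a3 (881, 702 and 330 CPM, median 1040 over the other 31) and Gfap (133, 202 and 433, median 614) were below their medians. Aldh1l1 (97.6, 91.1 and 85.7, median 71.8) was above its median. Aqp4 (125, 210 and 358, median 207) and Gja1 (316, 367 and 395, median 349) were below theirs only in WT library 3. Interneuron markers summed to 981, 1260 and 931 CPM, against 659 to 877, but did not move alike. Their mean log2 CPM was 6.35, 5.89 and 4.79, beside a median of 5.94 over all libraries. In the third library Gad1, Gad2, Slc32a1 and Pvalb were above their medians over the other 31. Sst (48.8 CPM, median 221), Vip (1.26, median 19.4), Lhx6 (1.1, median 23.2) and Dlx1 (2.3, median 19.8) were below theirs. Vip was at 0.521 CPM in the second library. The 7 neocortical markers summed to 735, 277 and 226 CPM, against 307 to 619 in the others. Single genes of other lists also went against their sums. In the third library Cdh24 of the CA3 list was at 19.3 CPM (median 6.45 over the other 31). Tac2 of the thalamus and habenula list was at 0.329 CPM there (median 3.54). No striatal or thalamic marker was at 0. In whole tissue, fewer cells of a type and less RNA per cell cannot be told apart.

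Per length, in the 19 libraries without the segment, Pcp4 was the highest of the 6 at 230 ± 163 RPKM (reads per kilobase and per M reads; mean ± SD). Tiam1 followed at 16.2 ± 3.58, Ncam2 at 9.41 ± 0.981, Dscam at 9.17 ± 1.2, Kcnj6 at 3.98 ± 1.04 and Grik1 at 2.78 ± 0.526 RPKM. Ncam2 and Dscam, and also Kcnj6 and Grik1, did not differ beyond their spread, and the other neighbours in this order were further apart than their SDs. Values below are CPM, which are compared within a gene only.

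**Figure D1:**
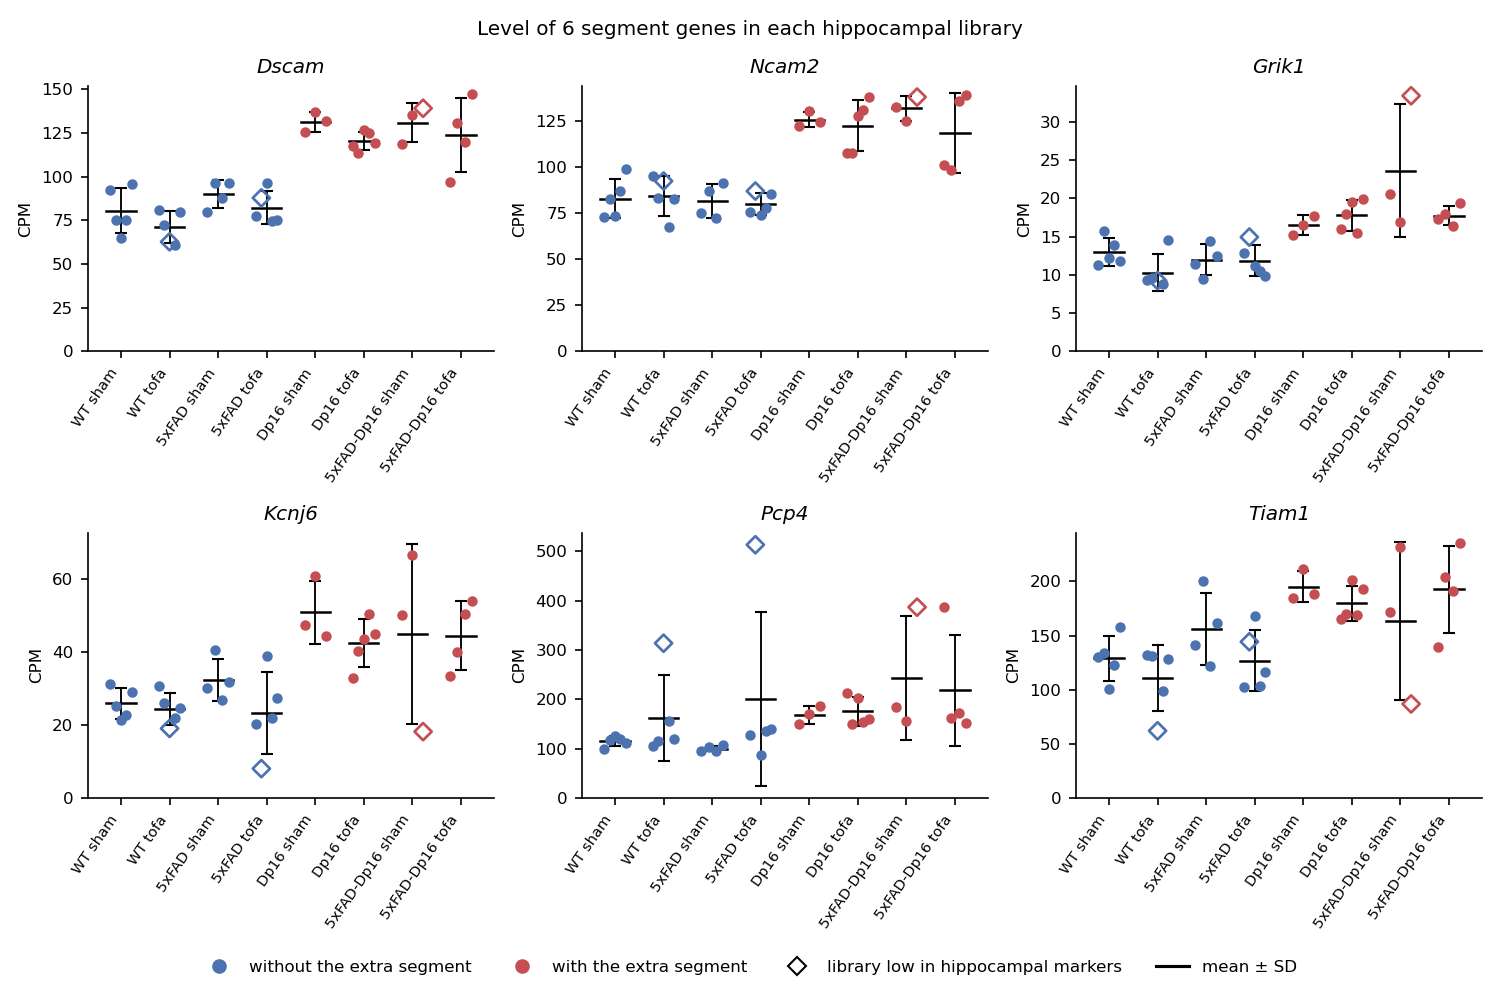
Level of each gene in CPM (vertical axis, from 0) in every library of the 8 groups (horizontal axis). Points are libraries, red with and blue without the extra segment, diamonds are the 3 libraries low in hippocampal markers, and bars are mean ± SD. All 15 red points of Dscam lie above all 19 blue ones, while for Pcp4 the diamonds and 1 further library reach 314 to 513 CPM.

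Averaged over the 4 comparisons of mice with and without the segment, 5 of the 6 genes were higher with the extra copy (edgeR's quasi-likelihood test, Benjamini-Hochberg adjusted p under 0.05). By the same test 0.902% of all 17518 genes were higher, as were 71 of the 107 tested segment genes (66.4%). The median log2 difference of the 6 genes was 0.639, that of all tested segment genes was 0.565 (quartiles 0.476 and 0.653), and that of all genes was -0.003. When the 3 libraries low in hippocampal markers were left out, all 6 were higher, against 1.06% of all genes. Ranked from the highest log2 difference among the 107 segment genes, Kcnj6 was at place 13, Grik1 22, Dscam 28, Ncam2 36, Pcp4 74 and Tiam1 84.

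The single comparisons called fewer of the genes. Dscam and Ncam2 were higher in Dp16 than in WT under sham (2 of 6, with 0.245% of all genes), and Dscam, Ncam2 and Grik1 were under tofacitinib (3 of 6, with 0.257%). Between 5xFAD-Dp16 and 5xFAD, Ncam2 and Grik1 were higher under sham (2 of 6, with 0.251%), and Dscam and Ncam2 under tofacitinib (2 of 6, with 0.206%). Of the 107 segment genes, 34, 37, 33 and 33 were higher in these 4 comparisons. The median log2 difference of the 6 genes in them was 0.60, 0.72, 0.64 and 0.58, beside 0.58, 0.56, 0.58 and 0.54 for all tested segment genes. The genes called higher without the 3 libraries were Dscam, Ncam2 and Kcnj6 in the first comparison (0.436% of all genes), Dscam, Ncam2 and Grik1 in the second (0.285%), Ncam2 in the third (0.151%) and Dscam, Ncam2 and Grik1 in the fourth (0.235%).

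Dscam, the adhesion molecule with the longest gene of the set, separated the libraries completely. So did the mean of the other tested segment genes, given above. The share of tested genes that separate in this way, over all libraries or between single groups, was not counted. In sham WT mice Dscam measured 92.1, 74.9, 64.7, 75.4 and 95.8 CPM, and in sham Dp16 mice 125, 137 and 132 CPM. Under tofacitinib it was 80.7, 72.1, 62.7, 60.7 and 79.9 CPM in WT and 118, 114, 126, 125 and 119 CPM in Dp16. Neither pair of groups overlapped. In 5xFAD mice it was 79.9, 96.5, 87.9 and 96.1 CPM under sham and 77.3, 87.8, 96.6, 74.8 and 74.9 CPM under tofacitinib. In 5xFAD-Dp16 mice it was 118, 135 and 139 CPM under sham and 97.0, 131, 119.5 and 147 CPM under tofacitinib. The lowest library with the segment (5xFAD-Dp16 tofacitinib library 1, at 97.0 CPM) was just above the highest without it, at 96.56. The mean log2 difference was 0.65 (95% interval 0.53 to 0.78, adjusted p = 4.59e-09), or 1.57-fold. It stayed called in each of the 34 refits that left out 1 library.

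In the single comparisons Dscam differed by 0.71 on the log2 scale under sham (adjusted p = 0.00206) and 0.76 under tofacitinib (adjusted p = 0.000126) between Dp16 and WT. Between 5xFAD-Dp16 and 5xFAD it differed by 0.55 under sham (adjusted p = 0.0695, interval 0.28 to 0.82) and 0.59 under tofacitinib (adjusted p = 0.0087). The last call was lost when 5xFAD-Dp16 tofacitinib library 4 was left out (adjusted p = 0.0944). DESeq2 called the sham difference between 5xFAD-Dp16 and 5xFAD (adjusted p = 0.0186). All 4 intervals held 0.585.

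Ncam2, the other adhesion molecule, was the only one of the 6 called in all 4 comparisons by the main edgeR fit of all libraries. In other fits of all libraries it was not alone. DESeq2 also called Dscam in all 4, and 2 surrogate variables also called Kcnj6. Dropping the filter on low counts added both. Ncam2 measured 72.9, 82.9, 73.4, 87.0 and 98.8 CPM in sham WT and 122, 130.3 and 125 CPM in sham Dp16 mice. Under tofacitinib it was 95.5, 83.5, 92.5, 67.6 and 82.6 CPM in WT and 108, 108, 128, 131 and 138 CPM in Dp16. Every Dp16 library was above every WT library of its treatment. In 5xFAD mice Ncam2 was 75.2, 87.1, 72.5 and 91.3 CPM under sham and 75.9, 87.1, 74.0, 77.7 and 85.4 CPM under tofacitinib. In 5xFAD-Dp16 mice it was 133, 125 and 138 CPM under sham and 101.3, 98.7, 136 and 139 CPM under tofacitinib. These groups did not overlap either, and the 4 tofacitinib 5xFAD-Dp16 animals fell into a lower and a higher pair. The log2 differences were 0.63, 0.56, 0.74 and 0.57 (adjusted p = 0.00431, 0.00327, 0.00193 and 0.00533), with a mean of 0.62 (interval 0.51 to 0.74, adjusted p = 2.9e-09, 1.54-fold). The first call was lost without Dp16 sham library 2 (adjusted p = 0.0634) and the fourth without 5xFAD-Dp16 tofacitinib library 3 (adjusted p = 0.0504).

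Grik1, the kainate receptor subunit, was the lowest per length of the set. It measured 11.3, 15.7, 12.2, 13.8 and 11.8 CPM in sham WT mice, and 15.2, 16.6 and 17.7 CPM in sham Dp16 mice. These groups overlapped in 1 WT library, and the log2 difference of 0.36 was not called (adjusted p = 0.703, interval -0.01 to 0.73). Under tofacitinib it was 9.35, 9.55, 9.26, 8.81 and 14.5 CPM in WT and 16.01, 18.01, 19.5, 15.4 and 19.9 CPM in Dp16, without overlap. That difference was 0.80 (adjusted p = 0.00997), and it was lost in 2 of the 34 refits, without WT tofacitinib library 1 or Dp16 tofacitinib library 5 (highest adjusted p = 0.0586).

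In 5xFAD mice Grik1 was 11.5, 9.52, 14.5 and 12.5 CPM under sham and 12.8, 14.9, 11.2, 10.54 and 9.91 CPM under tofacitinib. In 5xFAD-Dp16 mice it was 20.6, 16.9 and 33.4 CPM under sham and 17.3, 17.9, 16.3 and 19.4 CPM under tofacitinib. The value of 33.4 CPM, in a library low in hippocampal markers, was the highest of all 34, and the groups did not overlap with or without it. The sham difference was 1.00 on the log2 scale (adjusted p = 0.00768, interval 0.61 to 1.38, above 0.585), and leaving out that library alone gave 0.63 (adjusted p = 0.633). The call was also lost without 5xFAD sham library 2. The tofacitinib difference was 0.58 (adjusted p = 0.326), and 0.68 without the 3 libraries (adjusted p = 0.0334). The mean over the 4 comparisons was 0.68 (interval 0.51 to 0.86, adjusted p = 3.93e-06, 1.61-fold), and 0.61 (interval 0.45 to 0.78) without the 3 libraries.

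Kcnj6, the GIRK2 channel subunit, had the highest mean ratio of the 6. It measured 31.4, 25.2, 21.5, 22.8 and 29.1 CPM in sham WT and 47.6, 60.9 and 44.6 CPM in sham Dp16 mice. Under tofacitinib it was 30.6, 26.2, 19.1, 21.9 and 24.7 CPM in WT and 33.0, 40.2, 43.6, 50.6 and 45.1 CPM in Dp16. Dp16 libraries were above WT libraries in both treatments. In 5xFAD mice it was 30.2, 40.5, 27.1 and 31.8 CPM under sham and 20.3, 8.11, 39.0, 21.97 and 27.6 CPM under tofacitinib. In 5xFAD-Dp16 mice it was 50.1, 66.8 and 18.3 CPM under sham and 33.5, 40.1, 50.4 and 54.2 CPM under tofacitinib. Both pairs of groups overlapped, under sham through 1 library. The lowest values of the whole series, 8.11, 18.3 and 19.1 CPM, were those of the 3 libraries low in hippocampal markers.

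The mean log2 difference of Kcnj6 was 0.81 (interval 0.47 to 1.14, adjusted p = 0.00549, 1.75-fold). Without the 3 libraries it was 0.84 (interval 0.64 to 1.05, adjusted p = 1.45e-06, 1.80-fold), and that interval lay above 0.585. The same held without the 4 libraries lowest in these markers (0.86, interval 0.66 to 1.06) and with 2 surrogate variables in the fit of all libraries (0.86, interval 0.71 to 1.00). These intervals are not adjusted for the number of genes looked at. With all libraries none of the single comparisons was called: the log2 differences were 0.98, 0.80, 0.50 and 0.94 (adjusted p = 0.383, 0.75, 0.611 and 0.559). They were 0.99, 0.73, 0.93 and 0.73 without the 3 libraries, and the first was called (adjusted p = 0.00541). With 2 surrogate variables all 4 were called, at 1.01, 0.70, 0.90 and 0.82 (adjusted p = 0.000201, 0.00218, 0.00415 and 0.000598). Fits of only the compared groups called Kcnj6 in both comparisons of Dp16 with WT (adjusted p = 0.00325 and 0.0225). Such fits did not call it between 5xFAD-Dp16 and 5xFAD. The log2 differences there were 0.03 under sham (interval -1.07 to 1.13, adjusted p = 0.98) and 1.07 under tofacitinib (adjusted p = 0.672).

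Pcp4, the calmodulin regulator, varied most over the 34 libraries. It measured 98.8, 118, 126, 121 and 113 CPM in sham WT and 151, 169.6 and 186 CPM in sham Dp16 mice, without overlap. Under tofacitinib it was 106, 116, 314, 156 and 121 CPM in WT and 213, 149, 202, 155 and 161 CPM in Dp16. WT library 3 exceeded every Dp16 library, and WT library 4 exceeded 2 of them. In 5xFAD mice it was 95.9, 103, 95.5 and 107 CPM under sham and 128, 513, 87.7, 135 and 139 CPM under tofacitinib. In 5xFAD-Dp16 mice it was 186, 157 and 387 CPM under sham and 387, 162, 172 and 152 CPM under tofacitinib. The 4 highest of the 34 values were those of the 3 libraries low in hippocampal markers and of 5xFAD-Dp16 tofacitinib library 1, the library next above them in that order.

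The mean log2 difference of Pcp4 was 0.50 and was not called (interval 0.07 to 0.93, adjusted p = 0.297). Without the 3 libraries it was 0.64 (interval 0.38 to 0.89, adjusted p = 0.0041), and without the 4 it was 0.57 (interval 0.42 to 0.72, adjusted p = 1.01e-05), 1.48-fold. Of the single comparisons none was called with all libraries: the log2 differences were 0.53, 0.09, 1.26 and 0.12 (adjusted p = 0.866, 1, 0.287 and 0.999). They were 0.53, 0.49, 0.72 and 0.81 without the 3 libraries. Leaving out the 4 gave 0.56, 0.50, 0.81 and 0.40, where the first and the third were called (adjusted p = 0.0432 and 0.0351).

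Tiam1, the Rac exchange factor, had the lowest mean ratio of the 6. It measured 130, 134, 100.3, 123 and 158 CPM in sham WT and 185, 211 and 189 CPM in sham Dp16 mice. Under tofacitinib it was 132, 131, 62.1, 98.6 and 129 CPM in WT and 166, 170.2, 201, 169 and 193 CPM in Dp16. Both Dp16 groups were above their WT groups. In 5xFAD mice it was 142, 200, 122 and 162 CPM under sham and 102, 144, 168, 104 and 116 CPM under tofacitinib. In 5xFAD-Dp16 mice it was 172, 232 and 86.9 CPM under sham and 139.6, 204, 192 and 235 CPM under tofacitinib. Both of these pairs overlapped, and the value of 86.9 CPM, in a library low in hippocampal markers, was below every 5xFAD library.

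The mean log2 difference of Tiam1 was 0.46 (interval 0.22 to 0.71, adjusted p = 0.041, 1.38-fold), and it kept its call in 14 of the 34 refits that left out 1 library (highest adjusted p = 0.0861). Without the 3 libraries it was 0.56 (interval 0.37 to 0.75, adjusted p = 0.000369, 1.48-fold). The single log2 differences were 0.57, 0.69, 0.00 and 0.60 (adjusted p = 0.582, 0.409, 0.999 and 0.841). Without the 3 libraries they were 0.61, 0.56, 0.41 and 0.66, and none was called (adjusted p = 0.109, 0.259, 0.958 and 0.123). The interval of the third, between 5xFAD-Dp16 and 5xFAD under sham, was then -0.02 to 0.85.

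**Figure D2:**
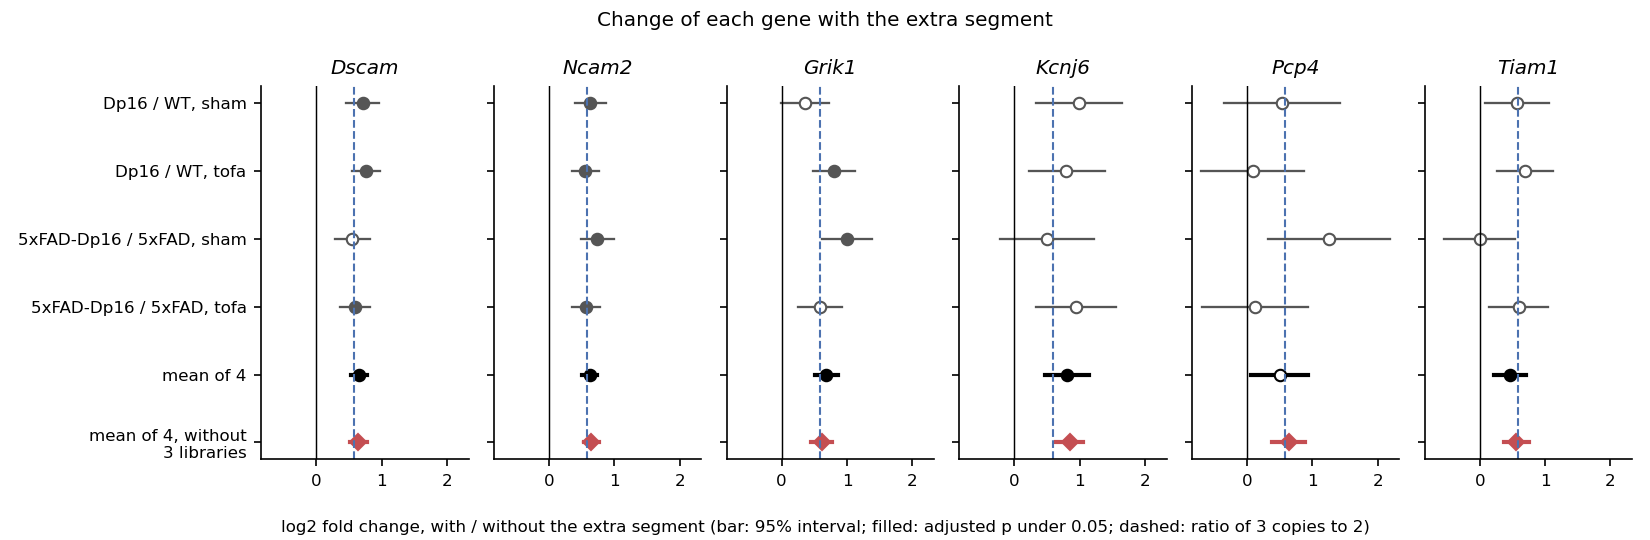
Log2 fold change with against without the extra segment (horizontal axis) for each gene in the 4 comparisons and for their mean, with 95% intervals. Filled marks have an adjusted p under 0.05, the dashed line is the ratio of 3 copies to 2 (0.585), and the red diamonds are the mean without the 3 libraries low in hippocampal markers. Among the red intervals, that of Kcnj6 (0.64 to 1.05) is the one that lies right of the dashed line. The interval of Grik1 for 5xFAD-Dp16 against 5xFAD under sham with all libraries (0.61 to 1.38) also lies right of it.

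The spread within groups ordered the genes differently from their levels. The SD of log2 CPM around the group means was 0.169 for Ncam2, 0.172 for Dscam, 0.246 for Grik1, 0.351 for Tiam1, 0.48 for Kcnj6 and 0.551 for Pcp4. Leaving out the 3 libraries gave 0.173, 0.175, 0.201, 0.25, 0.276 and 0.298 for the same order of genes. The 2 adhesion genes were therefore the steadiest in both sets of libraries, and Kcnj6 and Pcp4 the least steady. The second set still held 5xFAD-Dp16 tofacitinib library 1, with Pcp4 at 387 CPM. Without that library as well, the standard error of the log2 difference of Dp16 against WT under sham was 0.136 for Pcp4. It was 0.151 for Grik1, 0.16 for Tiam1 and 0.18 for Kcnj6, and these genes kept that order in the other single segment comparisons. By that measure Pcp4 was not the least steady.

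With each library's group mean removed, the genes fell into patterns over the 31 libraries other than the 3. These are descriptions, since the points share library preparation, dissection and the scaling. Kcnj6 and Tiam1 varied together (Pearson r = 0.83), as did Dscam and Tiam1 (r = 0.84) and Dscam and Kcnj6 (r = 0.74). Pcp4 varied against them, with r = -0.67 for Dscam, -0.64 for Kcnj6 and -0.60 for Tiam1. Grik1 lay between -0.28 and 0.05 with each of the other 5. Leaving out 5xFAD-Dp16 tofacitinib library 1 as well, next in the order of low hippocampal markers, gave 0.81, 0.80 and 0.70 for the first 3 pairs and -0.55, -0.63 and -0.48 for the pairs with Pcp4 over 30 libraries.

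Beside region markers, Kcnj6 and Tiam1 each had r = 0.85 with the mean of the dentate granule cell list over these 31 libraries. Over the 30 without 5xFAD-Dp16 tofacitinib library 1 these were 0.83 for Kcnj6 and 0.82 for Tiam1. Pcp4 had r = -0.79 with CA1, and -0.73 over the 30 libraries. Its r of 0.77 with the striatal list and 0.69 with thalamus and habenula rested on that 1 library, since they were 0.21 and 0.19 without it. Grik1 had r = 0.62 with the interneuron list, Dscam 0.63 with CA1, and Ncam2 0.53 with the dentate list, and over the 30 libraries these were 0.66, 0.52 and 0.47. Other lists gave r of like size. With oligodendrocyte precursors Pcp4 had r = -0.74, Tiam1 0.63, Dscam 0.60 and Kcnj6 0.58. Over the 30 libraries these were -0.58, 0.52, 0.47 and 0.50. Dscam also had r = 0.62 with the dentate list and -0.62 with choroid plexus, and 0.54 and -0.59 over the 30 libraries. In 5xFAD-Dp16 tofacitinib library 1, where Pcp4 was at 387 CPM, Kcnj6 was at 33.5 and Tiam1 at 139.6, each the lowest of its group. The part of tissue composition in these values was not tested.

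**Figure D3:**
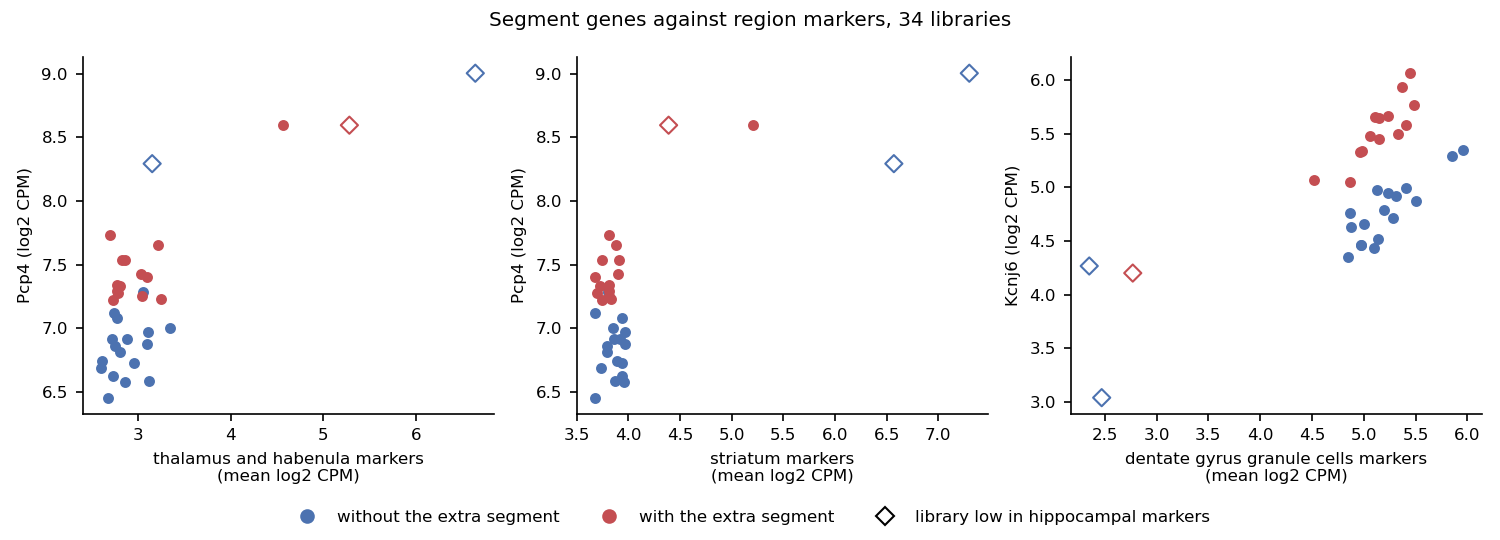
Log2 CPM of Pcp4 against the mean log2 CPM of thalamus and habenula markers (left) and striatal markers (middle), and of Kcnj6 against dentate granule cell markers (right), 1 point per library. Red is with and blue without the extra segment, and diamonds are the 3 libraries low in hippocampal markers. The 4 highest Pcp4 values (314 to 513 CPM) lie right of the other libraries on the striatal axis, and the 3 diamonds lie far left on the dentate axis.

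No member passed the test for the 5xFAD transgenes. In the mean of the 4 comparisons with and without the transgenes, 0 of 6 were called by edgeR or DESeq2, against 1.59% of all genes by edgeR. At an unadjusted p under 0.05 by edgeR were 0 of 6, beside 10.5% of all genes. The log2 differences were 0.10 for Dscam (interval -0.02 to 0.22), -0.03 for Ncam2 (-0.14 to 0.09), 0.15 for Grik1 (-0.03 to 0.33), 0.03 for Kcnj6 (-0.29 to 0.35), 0.24 for Pcp4 (-0.19 to 0.66) and 0.09 for Tiam1 (-0.15 to 0.32). Leaving out the 3 libraries put Pcp4 at 0.02 (-0.22 to 0.26) and Kcnj6 at 0.15 (-0.05 to 0.34). None of the 6 was called in any single comparison: 5xFAD against WT under sham (0.445% of all genes) and under tofacitinib (0.32%), or 5xFAD-Dp16 against Dp16 under sham (0%) and under tofacitinib (0.0285%). In the third of these 1275 genes had an unadjusted p under 0.05. Grik1 had the smallest p among the 6 in it, at a log2 difference of 0.51 (adjusted p = 0.66), and 0.19 without the 3 libraries.

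No member was called for tofacitinib either, by edgeR or DESeq2, and 1 (Dscam) had an unadjusted p under 0.05 in the mean over the 4 genotypes. In that mean 0% of all genes were called by edgeR and 2 by DESeq2, while 1354 had an unadjusted p under 0.05. The log2 differences were -0.13 for Dscam (interval -0.25 to -0.01, adjusted p = 0.629), -0.05 for Ncam2 (-0.17 to 0.06), -0.16 for Grik1 (-0.34 to 0.02), -0.21 for Kcnj6 (-0.54 to 0.11), 0.34 for Pcp4 (-0.09 to 0.77) and -0.09 for Tiam1 (-0.33 to 0.14). Kcnj6 without the 3 libraries was at -0.24 (interval -0.44 to -0.05, adjusted p = 0.37) and Pcp4 at 0.21 (-0.03 to 0.46). Within genotypes, 0 of 6 were called in WT (0% of all genes, 491 with an unadjusted p under 0.05), Dp16 (0.00571%), 5xFAD (0%, 1017) and 5xFAD-Dp16 mice (0%, 1307). At an unadjusted p under 0.05 was 1 member each in WT, 5xFAD and 5xFAD-Dp16 mice and 0 in Dp16 mice. In WT mice it was Grik1, at -0.33 (adjusted p = 1). In 5xFAD mice it was Pcp4, at 0.97 (adjusted p = 0.788), which was 0.30 without the 3 libraries. The member in 5xFAD-Dp16 mice was again Grik1, at -0.42 (adjusted p = 0.668), which was -0.06 without sham library 4 of that genotype and -0.09 without the 3 libraries.

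The effect of the extra segment was not found to differ with the transgenes or the drug for any of the 6, by edgeR, by DESeq2 or at an unadjusted p under 0.05. The test of the difference between animals with and without the 5xFAD transgenes called 0 of 6 and 0% of all genes (851 at an unadjusted p under 0.05, and 2 by DESeq2). That between tofacitinib and sham called 0 of 6 and 0% (1148, and 3 by DESeq2). For Dscam and Ncam2 the intervals of these differences stayed within 0.41 on the log2 scale of 0: -0.41 to 0.08 and -0.16 to 0.29 for the transgenes, -0.20 to 0.29 and -0.35 to 0.11 for the drug. The estimate farthest from 0 belonged to Pcp4 with the drug, -0.79 (interval -1.64 to 0.06, adjusted p = 0.777), which became 0.02 (-0.46 to 0.50) without the 3 libraries. That of Tiam1 with the transgenes was -0.33 (-0.80 to 0.14), and -0.05 without the 3 libraries.

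No member was called between females and males by edgeR or by DESeq2, against 0.0628% of all genes by edgeR. None had an unadjusted p under 0.05 by edgeR, beside 3.06% of all genes. The log2 differences, female against male, were between -0.11 (Ncam2, interval -0.22 to 0.01) and 0.10 (Tiam1, -0.14 to 0.35).

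**Figure D4:**
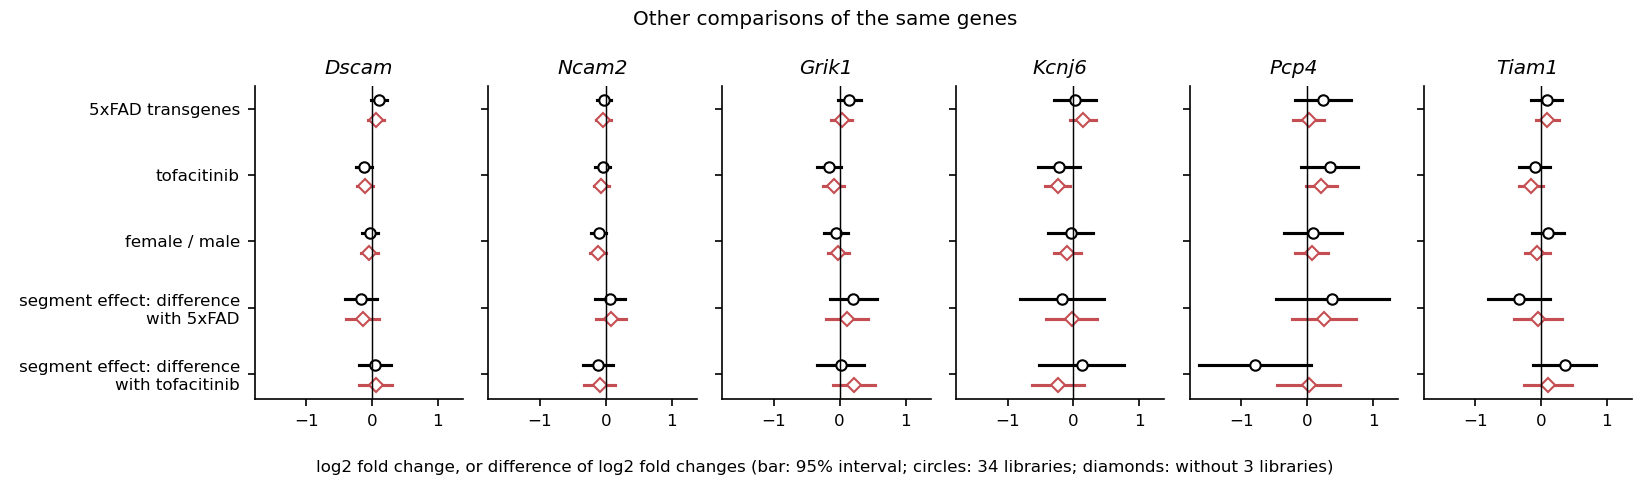
Log2 fold changes with 95% intervals of the 6 genes for the 5xFAD transgenes, tofacitinib and sex, and the difference of the segment effect with transgenes or drug. Circles are all 34 libraries and diamonds leave out the 3 libraries low in hippocampal markers, and no mark has an adjusted p under 0.05. Pcp4 moves most between the 2 sets, from -0.79 to 0.02 in the lowest row.

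Close relatives of the 6 genes outside the segment, listed with their partners, did not pass the test with the extra segment. None of 21 adhesion paralogs and partners of Dscam and Ncam2, 6 kainate receptor subunits and auxiliary proteins, 12 GIRK subunits and GABA-B coupling proteins, 11 calmodulin genes and regulators, or 16 Rac activators and effectors was called by edgeR in the mean of the 4 segment comparisons, which called 1.38% of all genes. At an unadjusted p under 0.05 were 2, 1, 1, 0 and 4 of them, beside 12.8% of all genes. None was called in any of these 4 comparisons singly, or in the transgene or tofacitinib mean. Their median log2 differences in the segment mean were 0.03, -0.10, 0.01, -0.05 and -0.03, beside -0.003 for all genes. The paralog named first in each list, or each of the first 2 for adhesion, gave log2 differences of 0.01 for Dscaml1 (interval -0.31 to 0.33), 0.03 for Ncam1 (-0.11 to 0.17), -0.06 for Grik2 (-0.19 to 0.07) and -0.04 for Pcp4l1 (-0.52 to 0.44). Kcnj9, which encodes the GIRK3 partner subunit, was at -0.19 (-0.37 to -0.01, adjusted p = 0.349). Tiam2, the other member of its exchange factor pair, was at -0.31 (-0.51 to -0.11, adjusted p = 0.131).

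The nearest tested genes inside the segment had log2 differences on both sides of those of the members. Dyrk1a, a kinase gene next to Kcnj6, was higher by 0.54 (adjusted p = 5.46e-11), and Erg, on its other side, differed by 0.20 (adjusted p = 0.324). Sod1, which encodes a superoxide dismutase and lies next to Tiam1, was higher by 0.51 (adjusted p = 2.9e-09). Bace2, the next tested gene above Dscam, differed by 0.85 at a mean of 4.02 CPM (adjusted p = 0.0505). The neighbours of Ncam2 were A730009L09Rik, higher by 1.46 at a mean of 0.597 CPM (adjusted p = 0.0131), and Chodl, at -0.32 and 0.572 CPM (adjusted p = 0.771). Next to Grik1, 2810407A14Rik differed by 0.17 (adjusted p = 0.835), and next to Pcp4, Igsf5 differed by 0.07 (adjusted p = 0.98). Grik1 and Tiam1 are neighbours of each other among the tested genes, as are Pcp4 and Dscam.

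Outside the segment, the genes whose log2 CPM followed each member most closely over the 34 libraries were found by Pearson r, which here includes the difference between groups and the 3 libraries. For Dscam they were Setd7 (0.79), Lcat (0.78) and Fam120c (0.74), and for Ncam2 they were Etnk1, Prpf40b and Zfr2 (0.71 to 0.73). For Grik1 the closest were Smoc1 (0.84), Slc41a1 and Tspyl2. For Kcnj6 they were Asph (0.82), Ryr2 and Srl, and for Tiam1 Usp22 (0.86), Tmem201 and Slc39a6. For Pcp4 they were Etnppl (0.89), Syndig1l and Pllp. Over the 31 libraries without the 3, the r of these first-named genes was 0.80 for Setd7, 0.81 for Etnk1, 0.77 for Smoc1, 0.69 for Asph, 0.80 for Usp22 and 0.78 for Etnppl. Except for Ncam2, other genes came first there: Lcat for Dscam (0.83), Zfr2 for Grik1 (0.81), Etnk1 for Kcnj6 (0.84) and Naxd for Pcp4 (0.85). For Tiam1, Etnk1 came level with Usp22 (0.802 each). Over all 34 libraries Etnk1 had r = 0.19 with Kcnj6 and 0.305 with Tiam1, and Naxd had 0.21 with Pcp4.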

How the data were processed

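Polyadenylated RNA of each hippocampus was made into strand-specific libraries and read as pairs of 150 bp, per the labels' protocols. HISAT2 2.1.0, HTSeq 0.6.1, SAMtools 1.5, FastQC 0.11.5 and bcl2fastq appear with GRCm38 in the submitters' processing notes, and the gene models are GENCODE release 24 by the deposited tables' names. The strand setting and the handling of reads that match several places were not given in the sources used here. The authors deposited whole, unnormalised counts per gene, which were tested, and RPKM values, which were used only to order levels. Positions come from GENCODE release 21 (also GRCm38), where 99.6% of identifiers were found.

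Counts were scaled with TMM, filtered with filterByExpr by group and tested with edgeR 4.0.16 (robust quasi-likelihood F-test, two-sided, R 4.3.3) in 1 fit of the 34 libraries with 8 group means and a sex term, leaving 25 residual degrees of freedom. P-values were adjusted by Benjamini-Hochberg over 17518 genes, with a threshold of 0.05, and every adjusted p given without a tool is from this test. CPM use the TMM-scaled totals. Alternatives were other size factors, dropping the filter on low counts, dropping the sex term, a replicate block, 2 surrogate variables (sva 3.50.0), DESeq2 1.42.0, only the compared groups, and leaving out libraries. Leaving out the 4 libraries lowest in hippocampal markers was chosen after seeing the data, while the other alternatives were listed earlier. The 3 libraries low in these markers were also picked by their values in these data. The members, the 5 pathway lists, the 13 marker lists and the rule for named genes (all 6 members, listed genes past the threshold or else the closest paralog, and the 3 most similar genes outside the segment) were chosen with earlier results of these data known. The labels do not say that samples of a group came from separate litters or batches, so p-values measure the spread between these samples. No 2 libraries were duplicates (highest r between libraries 0.9856).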

Additional observations from a re-analysis of the deposited data

Results flagged for a closer look

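Of 36 sets of 1 gene in 1 group of 4 or 5 libraries, 4 held a library far from the others, where chance gives about 1 in 20. Pcp4 was at 313.8 CPM in WT tofacitinib library 3, with the other 4 at 106.1 to 155.8. It was at 513.2 CPM in 5xFAD tofacitinib library 2, with the others at 87.72 to 139.1, and at 387.4 CPM in 5xFAD-Dp16 tofacitinib library 1, with the others at 152.3 to 172.5. The first 2 of these libraries are among the 3 low in hippocampal markers, and the last is next in that order. Grik1 was at 14.52 CPM in WT tofacitinib library 5, with the others at 8.812 to 9.555. That library was not low in the markers, at a mean log2 CPM of 5.28. Groups of 3 libraries were not tested in this way.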

How the results depend on the processing

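Of 930 values of a gene in a comparison under another setting than leaving out 1 library, 46 changed their call (37 gained, 9 lost), and no called value changed sign. Leaving out 1 library at a time lost 27 calls and gained 6. The sign changed without a call for 28 of the 108 values. Other size factors and no sex term changed no count of called members among the 6.

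Without a filter on low counts, 5 of the 6 genes were called in Dp16 against WT under sham (2 with the filter), 5 under tofacitinib (3), 5 in 5xFAD-Dp16 against 5xFAD under sham (2) and 4 under tofacitinib (2). It also called 1 in 5xFAD-Dp16 against Dp16 under sham, 1 for tofacitinib in WT, 2 in 5xFAD mice, and 1 each (Pcp4) for the transgene mean, the tofacitinib mean and the segment-by-tofacitinib difference. The filter itself removed none of the 6. In Dp16 against WT under sham Pcp4 was at 0.53 with the filter and 0.52 without it, while its standard error fell from 0.431 to 0.124. The standard error also fell for Kcnj6 (0.32 to 0.135) and Tiam1 (0.238 to 0.123), but hardly for Dscam (0.123 to 0.122). With 2 surrogate variables Kcnj6 was called in all 4 segment comparisons, and 3, 4, 2 and 4 of the 6 in the same order (in the third Ncam2 and Kcnj6, without Grik1 at an adjusted p of 0.0614). Fits of only the compared groups called 4 in Dp16 against WT under sham and 0 in both comparisons of 5xFAD-Dp16 with 5xFAD, where they called 0 of all genes. Without the 3 libraries low in hippocampal markers 1 was called in 5xFAD-Dp16 against 5xFAD under sham, and without the 4 lowest 4 were called in Dp16 against WT under sham and 4 in 5xFAD-Dp16 against 5xFAD under tofacitinib. The causes of these shifts were not tested.

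Leaving out 1 library gave 1 to 2 called genes in Dp16 against WT under sham (1 without Dp16 sham library 2), 1 to 3 in 5xFAD-Dp16 against 5xFAD under sham (1 without 5xFAD sham library 2 or 5xFAD-Dp16 sham library 4) and 1 to 2 under tofacitinib (1 without 5xFAD-Dp16 library 3 or 4). In the segment mean it gave 4 to 6.

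Replicate numbers are shared between groups, but the labels do not say that they pair animals. Same-numbered libraries deviated together with r between -0.195 and 0.255 over 14 pairs, and 4 pairs were over 0.1. With the replicate number as a block, 1 gene (Ncam2) was called in 5xFAD-Dp16 against 5xFAD under sham instead of 2, 2 in Dp16 against WT under tofacitinib instead of 3, and 5 in the segment mean as before, with 181 of all genes instead of 242.

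Over all genes the segment mean called 242, and 705 without the filter, 504 with 2 surrogate variables, 415 with DESeq2 and 408 without the 4 libraries. The transgene mean called 279, and 884 without the filter. In Dp16 against WT under sham 54 genes were called, and 237 without the filter, 119 without the 3 libraries, 135 without the 4, 95 with DESeq2 and 98 with only the compared groups. Under tofacitinib 47 were called, and 214 without the filter. In 5xFAD-Dp16 against 5xFAD under sham 47 were called, and 1054 without the filter, 28 with the block, 27 without the 3 libraries and 119 with DESeq2, and under tofacitinib 38 and 273 without the filter. The counts of Grik1 (11.8 CPM on average without the segment) give the least depth of the 6, and groups of 3 to 5 animals limit all single comparisons.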
